A study of Mus musculus with 13 samples.

Results

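The genes described are 10 genes of the complement system measured in mouse cortex: the C1q chains C1qa, C1qb and C1qc, the central components C4b and C3, the receptors C3ar1 and C5ar1, the complement receptor 3 subunits Itgam and Itgb2, and the C1 inhibitor gene Serping1. They were chosen by gene name from a table of 53832 gene entries, with earlier results of these data known. Each name stood on 1 entry. All 10 passed the minimum of a mean of 0.5 TPM over all libraries (a share of a library's transcripts, scaled by gene length) and were among the 18612 genes tested. C3, at 0.257 to 1.37 TPM, and C5ar1, at 0.429 to 2.27 TPM, lay close to that minimum.

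Complement is a cascade of plasma proteins that tags targets for uptake and lysis. In the classical pathway, C1q binds a target, the attached proteases cleave C4 and then C3, and fragments of both stay on the surface as tags. Complement receptor 3 on phagocytes takes up tagged material, while the small fragments C3a and C5a signal through their own receptors. In the brain, C1q and the receptors are made mainly by microglia, C4 and C3 by astrocytes among other cells, and the pathway is known for tagging synapses and for coating amyloid plaques.

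Cortical poly(A) RNA was sequenced in 13 libraries of 3 groups, which addressed the response of an Alzheimer's disease model to trazodone, an antidepressant that acts on serotonin signalling. Distilled water was given to WT mice (n = 6, WT water) and to APP/PS1 mice (n = 3, APP/PS1 water), and trazodone to further APP/PS1 mice (n = 4, APP/PS1 trazodone), all with 2 weeks in the sample titles. APP/PS1 mice carry a human APP and a presenilin 1 transgene. All mice were perfused, and the RNA came from the cortices of the right hemisphere. The transgene line, its promoter, the dose, the age and the sex are not given in the labels, and no WT group given trazodone was analysed here. Nothing in the labels says that libraries of a group came from separate animals beyond their replicate numbers. The p-values therefore measure the spread between these libraries, which may be technical.

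Estimated depth was 32.6 to 33.7 M fragments in WT water, 30.9 to 32.2 M in APP/PS1 water and 34.0 to 37.2 M in APP/PS1 trazodone. App, to which reads of the transgene can add, stood at 905 ± 121 TPM (SD, n = 6) in WT water, 1928 ± 188 (n = 3) in APP/PS1 water and 2702 ± 185 (n = 4) in APP/PS1 trazodone. In composition, the 3 libraries of APP/PS1 water differed from the rest. Relative to each gene's mean over the 13 libraries, their log2 TPM fell by 0.16 to 0.233 per 10 percentage points of gene GC content. The slopes were -0.0414 to 0.0959 in WT water and 0.0268 to 0.139 in APP/PS1 trazodone. Mitochondrial transcripts held at least 13.1% of TPM in APP/PS1 water, against 8.96 to 12.3% in the other libraries. WT water 3 and 6 held 747 and 2712 summed TPM of choroid plexus markers, against 155 to 207 in the other libraries. Leaving out both WT libraries kept the 7 members called against WT water in each APP/PS1 group.

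In the APP/PS1 mice given water, 7 of the 10 complement genes were higher than in WT mice given water: all 3 C1q chains, C4b, C3ar1, Itgam and Itgb2. Their rises ran from 2.2-fold for Itgam to 7.22-fold for C4b. C3, C5ar1 and Serping1 were not called, and none of the 3 had an unadjusted p under 0.05 there. In APP/PS1 trazodone against WT water C5ar1 had an unadjusted p of 0.0178 (limma adjusted p 0.247) and was not called. Between the water groups, 23.7% of all genes tested were called, 6.19% higher and 17.5% lower in APP/PS1 mice (limma, Benjamini-Hochberg adjusted p under 0.05). The same 7 members were called higher in APP/PS1 trazodone than in WT water, where 1.97% of all genes were called higher. For these 7 the libraries of each APP/PS1 group lay wholly above those of WT water, which held for 6.55% of all genes in APP/PS1 water and 3.25% in APP/PS1 trazodone. Between the APP/PS1 groups, only C3ar1 was called, lower with trazodone, where 3.92% of all genes were called lower and 12.5% higher. The median log2 fold change over the 10 members was 1.36 in APP/PS1 water against WT water, against -0.10 over all genes tested. It was 1.57 in APP/PS1 trazodone against WT water (all genes -0.04) and -0.04 in APP/PS1 trazodone against APP/PS1 water (all genes 0.07). The comparisons share libraries: both APP/PS1 groups were set against the same 6 WT libraries.

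**Figure D1:**
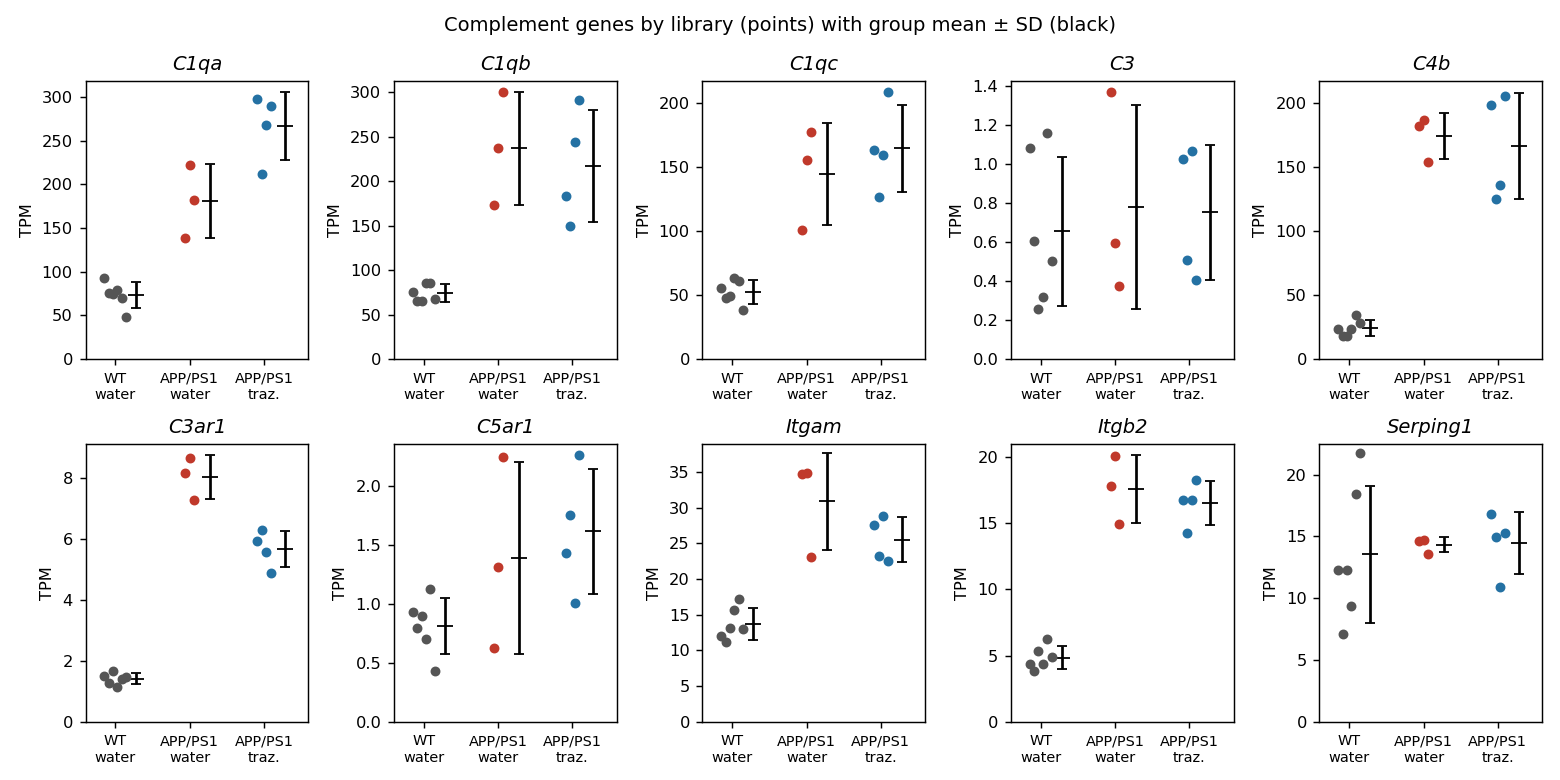
TPM of each of the 10 complement genes in each library (points, linear axis) in WT water, APP/PS1 water and APP/PS1 trazodone, with the group mean ± SD in black. For 7 genes every APP/PS1 library lies above every WT library, while the groups overlap for C3, C5ar1 and Serping1.

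C1qa, C1qb and C1qc encode the A, B and C chains of C1q, the recognition molecule of the classical pathway, which is built from equal numbers of the 3 chains. The genes lie together on the minus strand of chromosome 4 in GRCm38, C1qb (MSTRG.16177) at 136880129 to 136886187, C1qc (MSTRG.16179) at 136889804 to 136893065 and C1qa (MSTRG.16180) at 136895917 to 136898803. The gaps between them are 3617 and 2852 bp. C1qb and C1qc both rose against WT water, and their upstream bases, as RefSeq gives them for the minus strand of GRCm38.p6, are shown beside those of C3, which was called in no comparison of levels. Capitals mark AGGAAG on either strand (CTTCCT on the other), a core that ETS-family factors such as the myeloid factor PU.1 are known to bind. The stretches are chr4:136886201-136886450 for C1qb, chr4:136893066-136893164 for C1qc, whose window was cut where the annotated gene begins, and chr17:57228137-57228386 for C3.
C1qb: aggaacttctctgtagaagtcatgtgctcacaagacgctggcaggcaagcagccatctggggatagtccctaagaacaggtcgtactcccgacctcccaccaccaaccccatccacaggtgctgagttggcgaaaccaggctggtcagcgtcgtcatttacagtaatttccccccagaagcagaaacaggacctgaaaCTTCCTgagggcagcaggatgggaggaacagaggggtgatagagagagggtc
C1qc: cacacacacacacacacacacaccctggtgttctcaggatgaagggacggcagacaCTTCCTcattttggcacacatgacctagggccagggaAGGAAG
C3: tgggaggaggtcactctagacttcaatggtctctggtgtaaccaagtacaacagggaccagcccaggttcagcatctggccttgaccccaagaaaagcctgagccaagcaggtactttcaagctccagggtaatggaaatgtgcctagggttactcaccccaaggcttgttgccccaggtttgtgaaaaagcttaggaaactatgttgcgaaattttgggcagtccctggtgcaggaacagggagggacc
In the 250 bases before the start site, C1qb held 1 match, 52 bases before the start, and C1qc held 2, at 194 and 157 bases before it, while C3 held none. RefSeq promoter windows were matched for 6 of the 10 members, and 4 of the 6 (C1qb, C1qc, C5ar1 and Itgam) held the motif, against 29.5% of 32851 mouse promoter windows of the same length. C5ar1 held 3 matches without passing the test, all of them in the part of its window that lies inside the annotated gene, and C3ar1 rose with none. The motif was chosen with these sequences in view, and a match is a description only.

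C1qa, at 47.8 TPM in the lowest WT water library, a median of 75.1 and a highest of 93.1, stood at 138, 222 and 183 TPM in the 3 APP/PS1 water libraries. With trazodone it stood at 298, 211, 269 and 289.6 TPM. Both APP/PS1 groups lay wholly above WT water, and with trazodone only the 211 TPM library lay within the range of APP/PS1 water. Its log2 fold change was 1.30 ± 0.19 (SE; n = 3 and 6) in APP/PS1 water and 1.87 ± 0.17 (n = 4 and 6) in APP/PS1 trazodone against WT water, with limma adjusted p of 0.000276 and 1.32e-05.

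C1qb ran from 65.2 to 85.9 TPM in WT water with a median of 71.5. It stood at 173, 237 and 300.4 TPM in APP/PS1 water and at 183, 149.7, 244 and 291 TPM in APP/PS1 trazodone. The APP/PS1 groups covered nearly the same range, above every WT library. C1qb was 3.13-fold higher in APP/PS1 water than in WT water (log2 fold change 1.64 ± 0.20, limma adjusted p 8.3e-05), and the value in APP/PS1 trazodone was 1.51 ± 0.18 (adjusted p 0.000198).

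C1qc ran from 38.6 to 63.4 TPM in WT water with a median of 52.2. Its levels were 100.5, 155 and 177 TPM in APP/PS1 water and 163, 127, 159 and 209 TPM in APP/PS1 trazodone. Again the APP/PS1 groups overlapped each other and neither reached down to WT water. The log2 fold changes against WT water were 1.43 ± 0.19 (limma adjusted p 0.000191) and 1.63 ± 0.18 (adjusted p 6.87e-05).

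The balance of the 3 chains varied between libraries. The ratio of C1qa to C1qb was 0.707 to 1.24 in WT water. It was 0.798, 0.935 and 0.608 in APP/PS1 water, and 1.62, 1.41, 1.1 and 0.994 in APP/PS1 trazodone. The lowest trazodone library lay above the highest APP/PS1 water library, a separation upward that 18.1% of all genes showed in their levels, and WT water spanned parts of both. The log2 difference between the APP/PS1 groups was 0.71, with an exact two-sided permutation p of 0.0571 over 35 splits, of which 0.0286 is the smallest possible. Over the 9 tests made of the 3 ratios in 3 comparisons, adjusted p ran from 0.186 to 0.464, so no shift in the ratios passed the test. The genes have a GC content of 59.5% (C1qa), 57.4% (C1qb) and 57.5% (C1qc), and with a correction for GC content and length the difference was 0.65 (adjusted p 0.2, exact permutation test).

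**Figure D2:**
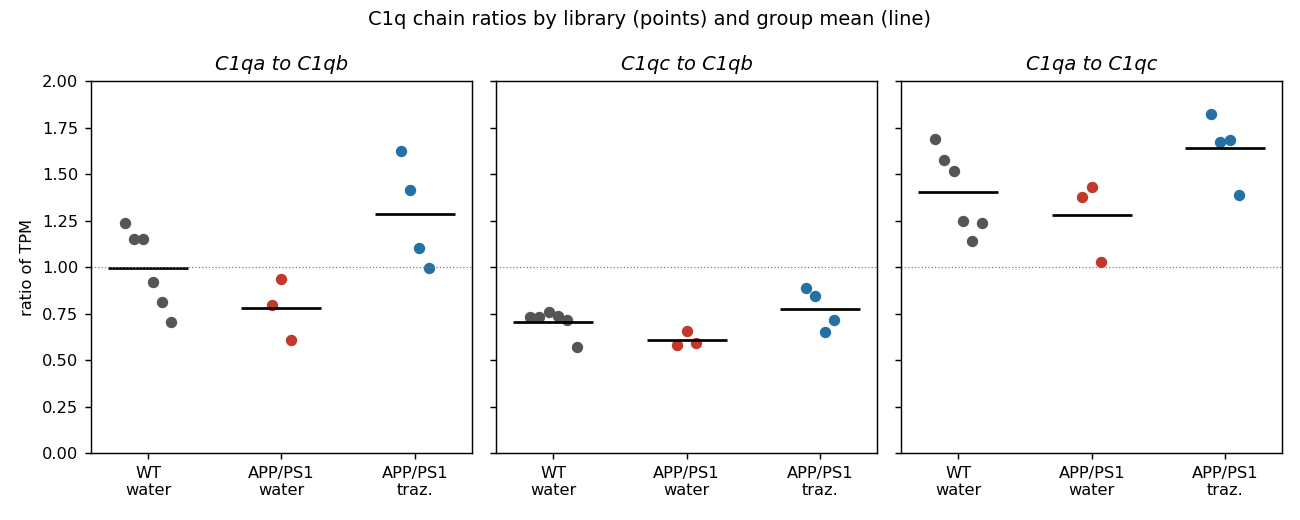
Ratios of TPM between the C1q chains in each library (points) with a bar at the group mean, for WT water, APP/PS1 water and APP/PS1 trazodone. C1qa to C1qb is 0.608 to 0.935 in APP/PS1 water and 0.994 to 1.62 in APP/PS1 trazodone, with WT water at 0.707 to 1.24 between and across them.

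C4b (MSTRG.9852, chromosome 17, 34728380 to 34743882, minus strand) encodes complement C4, which is cleaved next after C1q binds and covalently tags the target. It stood at 17.7 to 34.7 TPM in WT water with a median of 23.3. In APP/PS1 water it stood at 182, 187 and 154 TPM, and in APP/PS1 trazodone at 198, 125, 136 and 205 TPM. Every APP/PS1 library lay more than 3-fold above the highest WT library, and the APP/PS1 groups overlapped. The rise was 7.22-fold in APP/PS1 water (log2 fold change 2.85 ± 0.20, limma adjusted p 1.18e-06), place 13 among the log2 fold changes of 18612 genes. In APP/PS1 trazodone it was 6.75-fold (2.75 ± 0.19, adjusted p 8.62e-07), place 12.

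C4a is the neighbouring copy of C4b and the gene of the sex-limited protein, though GENCODE M21 lists it as a processed transcript, not as protein-coding. Its transcript is 95.9% identical to that of C4b over 5391 aligned positions. Of the 5280 stretches of 100 bases in the C4b transcript, 16.5% also occur in C4a, and how the authors assigned reads that match both is not given in the sources used here, so the split between the copies is uncertain. The stretch below, from position 2761 to 2820 of the C4b transcript, holds 13 bases (capitals) by which reads of the copies can be told apart. It was picked as the ungapped stretch of 60 coding bases with the most differences, so the copies are more alike elsewhere.
C4b: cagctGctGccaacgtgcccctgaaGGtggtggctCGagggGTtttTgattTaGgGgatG
C4a: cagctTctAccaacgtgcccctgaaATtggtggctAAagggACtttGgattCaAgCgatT
C4a (MSTRG.9853, 34809092 to 34823464) stood at 4.77 to 9.04 TPM in WT water, at 8.61, 8.72 and 7.39 TPM in APP/PS1 water and at 5.11 to 9.87 TPM in APP/PS1 trazodone. These groups overlap, and the log2 fold change in APP/PS1 water was 0.46 ± 0.21 (limma adjusted p 0.13, and 0.033 with the correction for GC content and length).

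C3 (MSTRG.10150, chromosome 17, 57203970 to 57228136, minus strand) encodes the component on which all activation routes converge. It was the least abundant member, at 0.257 to 1.16 TPM with a median of 0.555 in WT water. Over the libraries of all 3 groups it was backed by an estimated 16 to 80 fragments per library. APP/PS1 water libraries stood at 1.37, 0.593 and 0.376 TPM and trazodone libraries at 1.03, 0.506, 1.07 and 0.406 TPM. The 3 groups covered the same range. The log2 fold change in APP/PS1 water was 0.14 ± 0.32, with a 95% confidence interval of -0.55 to 0.82 (limma adjusted p 0.793). The microRNA gene Mir6978 lies inside C3.

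C3ar1 (MSTRG.19469, chromosome 6, 122847138 to 122856161, minus strand) encodes the receptor for C3a, a G protein-coupled receptor of myeloid cells. It stood at 1.15 to 1.66 TPM in WT water with a median of 1.43. In APP/PS1 water it stood at 8.15, 8.65 and 7.25 TPM, and in APP/PS1 trazodone at 5.92, 6.29, 5.56 and 4.88 TPM. The 3 groups did not overlap, with the trazodone libraries between the other two groups. The log2 fold change against WT water was 2.16 ± 0.13 in APP/PS1 water (4.47-fold, limma adjusted p 2.32e-07) and 1.69 ± 0.12 in APP/PS1 trazodone (adjusted p 9.1e-07).

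C5ar1 (ENSMUSG00000049130.6, chromosome 7, 16246743 to 16259540, minus strand) encodes the receptor for C5a, which draws and activates myeloid cells. It stood at 0.429 to 1.12 TPM in WT water with a median of 0.846, at 0.622, 1.31 and 2.24 TPM in APP/PS1 water, and at 1.43, 1.75, 1.01 and 2.27 TPM in APP/PS1 trazodone. The groups overlapped, with 1 APP/PS1 water library inside the WT range. The log2 fold change was 0.45 ± 0.27 (limma adjusted p 0.26) in APP/PS1 water and 0.67 ± 0.25 (adjusted p 0.247) in APP/PS1 trazodone, on an estimated 13 to 81 fragments per library.

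Itgam and Itgb2 encode CD11b and CD18, the alpha and beta chains of complement receptor 3, through which phagocytes bind the C3 fragment iC3b. Itgam (MSTRG.21500, chromosome 7, 128062640 to 128118491, plus strand) stood at 11.2 to 17.1 TPM in WT water with a median of 13.1, at 34.7, 34.8 and 23.1 TPM in APP/PS1 water, and at 27.5, 23.2, 28.9 and 22.5 TPM in APP/PS1 trazodone. All APP/PS1 libraries lay above the WT range, and the APP/PS1 groups overlapped. Its log2 fold change was 1.14 ± 0.15 in APP/PS1 water (limma adjusted p 0.000201) and 0.88 ± 0.14 in APP/PS1 trazodone (adjusted p 0.00252). The predicted gene Gm49368 overlaps Itgam and has no entry of its own, so its reads may be counted with those of Itgam.

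Itgb2 (MSTRG.2360, chromosome 10, 77530252 to 77565708, plus strand), whose product also pairs with other alpha chains on leukocytes, stood at 3.81 to 6.28 TPM in WT water with a median of 4.62. It stood at 17.8, 20.1 and 14.9 TPM in APP/PS1 water and at 16.7, 14.3, 16.7 and 18.3 TPM in APP/PS1 trazodone. The rise was 3.4-fold in APP/PS1 water (log2 fold change 1.77 ± 0.14, limma adjusted p 3.44e-06), and the log2 fold change in APP/PS1 trazodone was 1.68 ± 0.13 (adjusted p 2.65e-06). In neither APP/PS1 group did a library reach down to the WT range.

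Serping1 (MSTRG.12681, chromosome 2, 84765387 to 84775444, minus strand) encodes the C1 inhibitor, a serpin that blocks the C1 proteases. It stood at 7.13 to 21.8 TPM in WT water with a median of 12.3, at 14.7, 14.7 and 13.6 TPM in APP/PS1 water and at 16.8, 14.9, 10.9 and 15.2 TPM in APP/PS1 trazodone. The APP/PS1 libraries lay inside the WT range, whose highest values were 21.8 TPM in WT water 6 and 18.4 TPM in WT water 5. WT water 6 is also the library with 2712 summed TPM of choroid plexus markers. WT water 3, the other library high in these markers, held Serping1 at 12.3 TPM. The part of these markers in the Serping1 level was not tested. The log2 fold change in APP/PS1 water was 0.17 ± 0.27, with a 95% interval of -0.40 to 0.75 (limma adjusted p 0.685).

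**Figure D3:**
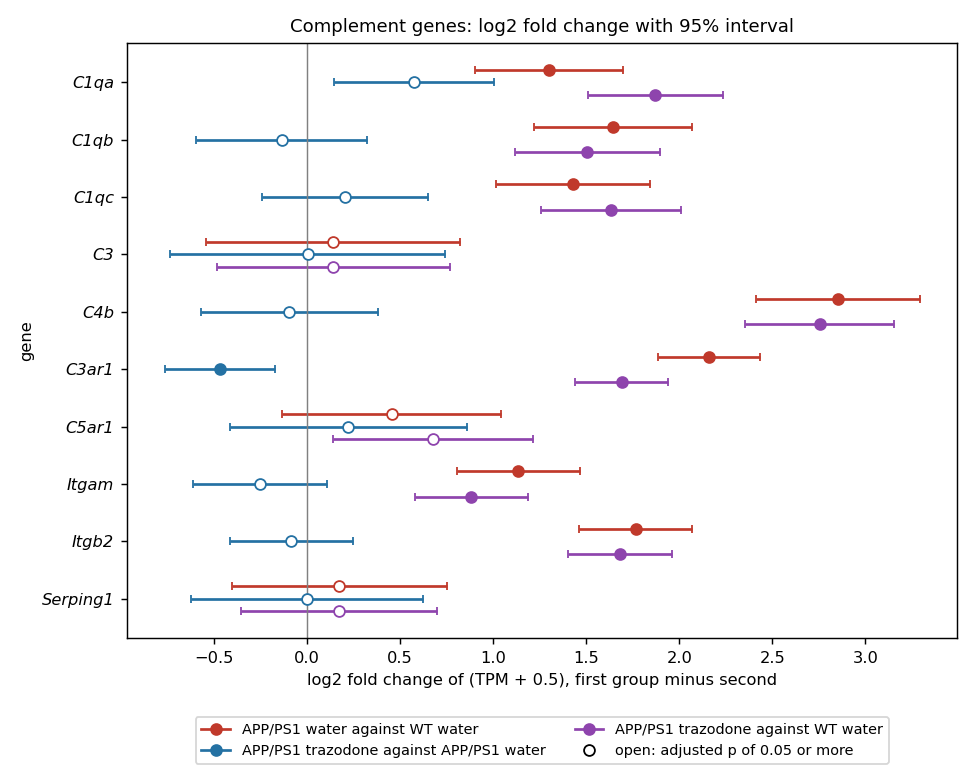
Log2 fold changes of the 10 complement genes (points) with 95% confidence intervals (lines) in the 3 comparisons, from the limma fit of log2(TPM + 0.5). Against WT water, 7 genes lie above 0 in both APP/PS1 groups with C4b farthest at 2.85 and 2.75, and between the APP/PS1 groups most intervals span 0.

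Setting the APP/PS1 groups against each other asks what the drug changed within the model genotype. C3ar1 was the 1 member called, at 0.722-fold of its level in APP/PS1 water (log2 fold change -0.47 ± 0.14, limma adjusted p 0.0332). Its trazodone libraries all lay below its water libraries, as did those of 8.35% of all genes tested. Over 23 other ways of processing the values, 1 of them chosen after seeing the data, the log2 fold change stayed between -0.54 and -0.35, and the call was lost in 11 of them, with adjusted p from 0.00798 to 0.137. With the correction for GC content and length it was -0.35 (adjusted p 0.137); C3ar1 has a GC content of 43.0%, and the APP/PS1 groups differ in their trend on GC content. The call was also lost in the fits without APP/PS1 water 1 or 2 and without trazodone library 1, 3 or 4. The highest limma adjusted p among them, 0.124, came without APP/PS1 water 2.

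C1qa had the largest positive difference with trazodone, 0.57 ± 0.20 with a 95% interval of 0.14 to 1.003, and did not pass the test (limma adjusted p 0.0678). The value fell to 0.22 (adjusted p 0.602) with the correction for GC content and length, and it was 0.73 (adjusted p 0.0454) without APP/PS1 water 2. Without WT water 3 and 6, an alternative chosen after seeing the data, it was 0.57 (adjusted p 0.032). C1qb and C1qc differed by -0.14 ± 0.21 and 0.20 ± 0.21, with intervals of -0.60 to 0.32 and -0.24 to 0.65. For C4b the difference was -0.10 ± 0.22 and its interval, -0.57 to 0.38, leaves room for a change of either sign that is small beside its rise against WT water. The interval was -0.61 to 0.11 for Itgam, -0.42 to 0.24 for Itgb2 and -0.42 to 0.86 for C5ar1. The widest intervals were those of C3, -0.74 to 0.74, C5ar1, and Serping1, -0.63 to 0.62. A p that misses the threshold does not show that the groups were alike.

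Microglial markers moved with the members. In bulk tissue, more cells of a type and more RNA per cell cannot be told apart. Of 15 microglial markers, none of them a member, 10 were called higher in APP/PS1 water and 10 in APP/PS1 trazodone against WT water. Their summed level was 361 to 449 TPM in WT water, 902 to 1110.4 TPM in APP/PS1 water and 802 to 927 TPM in APP/PS1 trazodone. All 6 markers shared by myeloid cells were also higher in both APP/PS1 groups. Among them Spi1, Irf8, Csf1r and Aif1 also belong to the 15 microglial markers, so the lists are not independent. Markers of blood leukocytes summed to 1.28 to 12.7 TPM in WT water, 4.43 to 5.22 TPM in APP/PS1 water and 2.27 to 8.69 TPM in APP/PS1 trazodone, and of the 2 abundant enough to test none was called in a comparison or had an unadjusted p under 0.05 (limma). Of 9 border macrophage markers tested, limma called 0 in either APP/PS1 group against WT water (1 and 0 at an unadjusted p under 0.05), and the list summed to 12.7 to 18.6, 14.0 to 22.8 and 16.9 to 22.7 TPM. Of 11 astrocyte markers, 4 were higher in APP/PS1 water and 3 in APP/PS1 trazodone, while 7 and 8 were not called. Their sums were 2190.2 to 2517 TPM in WT water, 3206 to 3613 TPM in APP/PS1 water and 3395 to 3707 TPM in APP/PS1 trazodone. The list's median log2 fold change against WT water was 0.22 in APP/PS1 water, with a range of -0.15 to 2.66. In APP/PS1 trazodone the median was 0.09, with a range of 0.008 to 2.79. The part of these markers in the members' changes was not tested.

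Set against the microglial markers, by subtracting each library's mean log2 level of the 15 markers, 4 members stayed higher in APP/PS1 water than in WT water: C4b by 1.83 ± 0.18, C3ar1 by 1.14 ± 0.14, Itgb2 by 0.74 ± 0.13 and C1qb by 0.62 ± 0.21 (log2, limma adjusted p of 2.09e-07, 3.01e-06, 9.62e-05 and 0.0115). On this scale 0.548% of all genes were higher and 92.9% were lower, since the markers themselves rose. Of the 15 markers themselves, 4 were called higher and 5 lower on this scale, with log2 differences from -1.21 to 1.14. Of the 6 markers shared by myeloid cells, 4 were called higher and 0 lower. Itgam stood at 0.11 ± 0.13 (adjusted p 0.414), while C1qa at 0.28 ± 0.21 and C1qc at 0.41 ± 0.22 did not pass the test. Both did with the correction for GC content and length, at 0.47 and 0.55 (adjusted p 0.022 and 0.012). C3 and Serping1 were called lower on this scale, like 92.9% of all genes, and C5ar1 was not called. The 6 pan-myeloid markers, which share genes with the 15 microglial ones, were then used as the reference in their place. Against them C4b at 1.31 and C3ar1 at 0.62 stayed called higher. The calls of Itgb2 (0.22, limma adjusted p 0.186) and C1qb (0.10, adjusted p 0.607) were lost. C5ar1 (-1.09, limma adjusted p 0.0022) and Itgam (-0.41, adjusted p 0.022) were called lower against that reference. The call of C1qb was also lost without APP/PS1 water 3 (0.35, adjusted p 0.113).

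In APP/PS1 trazodone against WT water, 6 members were higher on the marker scale, where 0.473% of all genes were higher and 92.2% lower: C4b by 1.87 ± 0.16, C1qa by 0.98 ± 0.19, C3ar1 by 0.80 ± 0.13, Itgb2 by 0.79 ± 0.12, C1qc by 0.74 ± 0.20 and C1qb by 0.62 ± 0.19. Itgam was at -0.01 ± 0.12. Of the 15 markers themselves, 4 were called higher and 2 lower there. Of the 6 markers shared by myeloid cells, 4 were called higher and 0 lower. Against the pan-myeloid reference C4b at 1.49, C1qa at 0.61, C3ar1 at 0.42 and Itgb2 at 0.41 stayed called higher, while C1qc (0.37, limma adjusted p 0.0535) and C1qb (0.24, adjusted p 0.199) did not. Itgam (-0.38, limma adjusted p 0.018) and C5ar1 (-0.59, adjusted p 0.047) were called lower against that reference. Between the APP/PS1 groups C1qa was higher with trazodone by 0.71 ± 0.23 (limma adjusted p 0.044), where 16.2% of all genes were higher. That call was lost with the correction for GC content and length (0.43, adjusted p 0.182) and in the fits without APP/PS1 water 1 or 2 and without trazodone library 1, 3 or 4 (0.50 to 0.81, adjusted p 0.0597 to 0.186). C3ar1 was at -0.34 ± 0.16 (adjusted p 0.154) and did not pass the test on this scale.

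**Figure D4:**
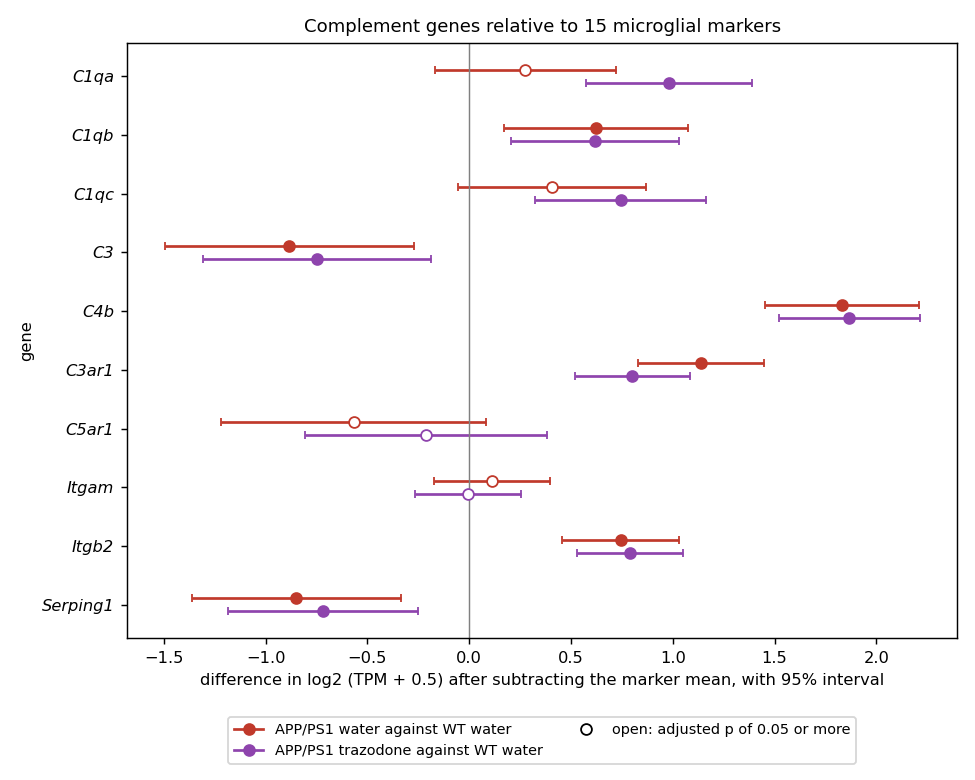
Log2 differences of the 10 complement genes from WT water after subtracting the mean log2 level of 15 microglial markers in each library, with 95% confidence intervals, for APP/PS1 water (red) and APP/PS1 trazodone (purple). C4b lies at 1.83 and 1.87, Itgam lies at 0.11 and -0.01, and C3 and Serping1 lie below 0.

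Beyond the 10 members, 45 other complement genes were listed, 44 had an entry and 25 passed the minimum. In APP/PS1 water 4 of the 25 rose and 4 fell, beside 6.19% of all genes higher and 17.5% lower, with a median log2 fold change of -0.13 against -0.10 over all genes. Itgax, Clu and Cr1l were among those that rose. Itgax encodes CD11c, the alpha chain of complement receptor 4, and stood at 0.356 ± 0.184 TPM in WT water, 22.8 ± 6.75 TPM in APP/PS1 water and 18.4 ± 2.81 in APP/PS1 trazodone. Its log2 fold change of 4.75 ± 0.22 (limma adjusted p 2.19e-08) exceeded that of every member, and its partner Itgb2 is a member. Itgad and Gm49368 lie within 5000 bp of Itgax and have no entry of their own, so their reads may be counted with it.

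Among the regulators, Clu, encoding clusterin, an inhibitor of the terminal complex that also carries lipids, rose from 971 ± 63.5 to 1294 ± 108 TPM (0.41 ± 0.08, limma adjusted p 0.00255) and stood at 1291 ± 121 TPM with trazodone. Cr1l, the mouse Crry gene, whose product blocks C3 activation on cell surfaces, was at 22.1 ± 1.7 and 27.3 ± 2.74 TPM (0.30 ± 0.10, adjusted p 0.0466). Susd4, a brain-expressed gene of the complement control family, fell from 133 ± 4.24 to 100.2 ± 5.22 TPM in APP/PS1 water (-0.41 ± 0.05, adjusted p 0.000146) and stood at 132 ± 4.95 TPM with trazodone, the only wider complement gene called between the APP/PS1 groups (0.40 ± 0.06, adjusted p 0.000685). Csmd2 (-0.72 ± 0.18, adjusted p 0.0091), Csmd1 (-0.23 ± 0.08, adjusted p 0.0418) and the C1r protease gene C1ra (-0.64 ± 0.20, adjusted p 0.0365) were the others that fell. The calls of Cr1l and Csmd1 were each lost in 11 of 13 other ways of processing the values and that of C1ra in 9 of 13, most of them leaving out a single library. Csmd2 lost its call without APP/PS1 water 3 (-0.58, limma adjusted p 0.0554), and all 4 lost it with the correction for GC content and length. That correction moved Susd4 to -0.22 in APP/PS1 water and to 0.19 between the APP/PS1 groups, where it stayed called (adjusted p 0.0049 and 0.0391).

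The abundant genes that were not called included Vtn, encoding vitronectin, at 121, 104 and 126 mean TPM in WT water, APP/PS1 water and APP/PS1 trazodone. The properdin gene Cfp stood at 20.5, 17.9 and 20.3 TPM, the lectin pathway protease gene Masp1 at 13.6, 12.3 and 13.8 TPM and the factor B gene Cfb at 8.54, 8.53 and 8.92 TPM. Of the terminal pathway, 2 of 6 genes passed the minimum: C8g at 4.65, 4.1 and 5.14 TPM and C7 at 0.892, 0.853 and 0.752 TPM, with none called and none at an unadjusted p under 0.05 (limma). C9 and the lectin gene Mbl1 were listed at 0 in every library.

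Brain genes that share the C1q domain without belonging to the cascade encode secreted synapse organisers. Of the 6 tested, 3 were called lower in APP/PS1 water and none higher, beside 17.5% and 6.19% of all genes. C1ql1 stood at 19.2 ± 0.69 TPM in WT water but 13.4 ± 2.7 TPM in the APP/PS1 water group, Cbln1 at 12.2 ± 1.82 and 7.75 ± 1.14, and C1ql2 at 6.03 and 2.85. The log2 fold changes were -0.52 ± 0.12, -0.62 ± 0.13 and -0.95 ± 0.31 (limma adjusted p 0.00535, 0.00383 and 0.0383). C1ql1 and Cbln1 were higher with trazodone than with water in APP/PS1 mice (0.67 ± 0.12 and 0.59 ± 0.14), where 12.5% of all genes were higher. All 5 calls were lost with the correction for GC content and length, where C1ql1 was at -0.03 and 0.12. Of 10 neuronal markers, 6 were lower in APP/PS1 water and 6 higher with trazodone, and the part of either in these values was not tested.

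**Figure D5:**
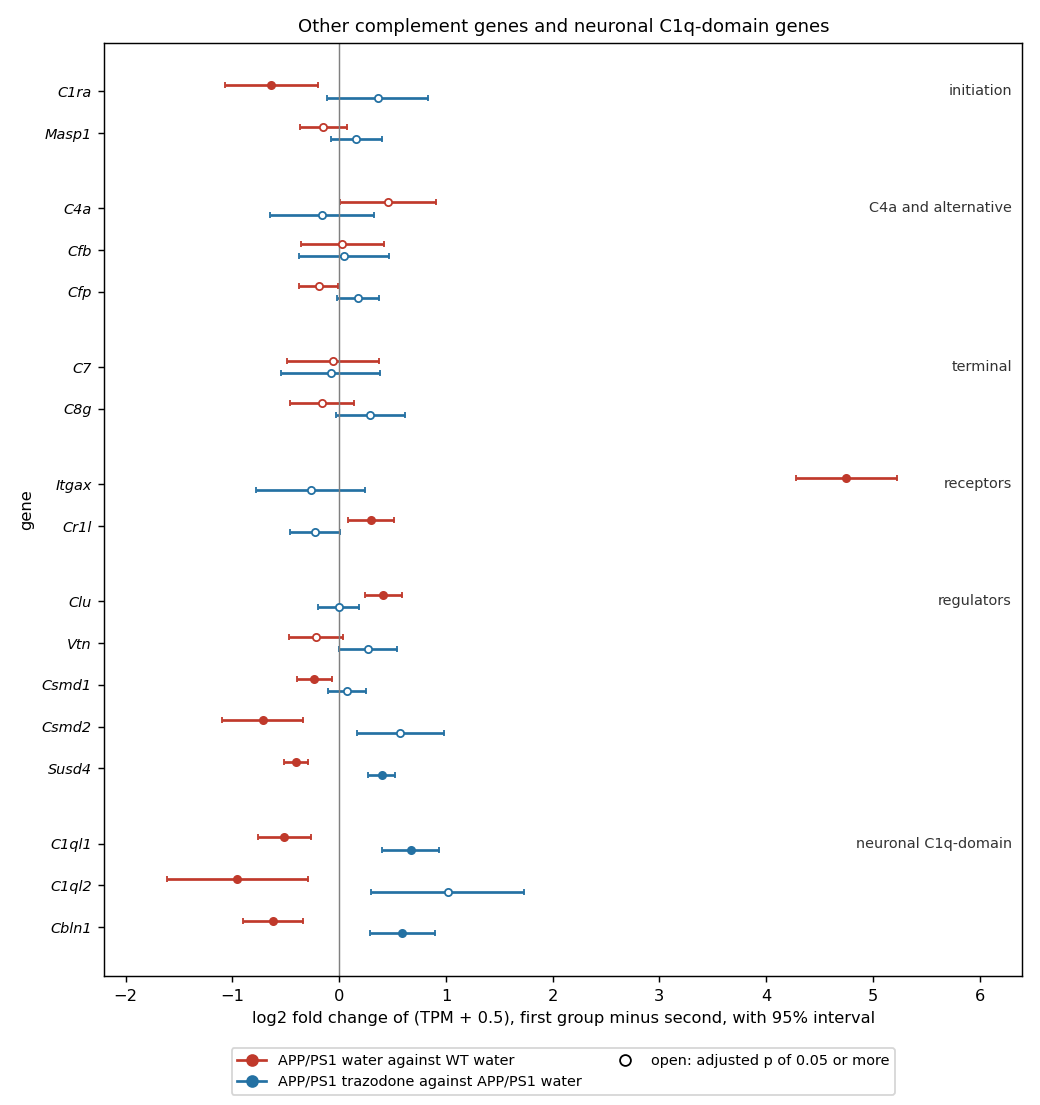
Log2 fold changes with 95% confidence intervals in APP/PS1 water against WT water and in APP/PS1 trazodone against APP/PS1 water for the other complement genes and the brain genes with a C1q domain that are named in the text. Itgax stands alone at 4.75 against WT water, Clu lies at 0.41, and Susd4 lies at -0.41 and then 0.40.

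Since TPM are scaled by length, the members' levels can be ordered within a group. In WT water the order of mean TPM was C1qb, C1qa, C1qc, C4b, Itgam, Serping1, Itgb2, C3ar1, C5ar1 and C3. The ranges of C1qb and C1qa, C1qa and C1qc, Itgam and Serping1, and C5ar1 and C3 overlapped, although C1qa was above C1qc in 6 of 6 libraries. In APP/PS1 water C4b moved up a place, to 174 ± 17.9 TPM between C1qa at 181 ± 42.0 and C1qc at 144 ± 39.6, and the ranges of C4b and the C1q chains overlapped. There Itgb2, at 17.6 ± 2.58 TPM, passed Serping1, at 14.3 ± 0.631. In APP/PS1 trazodone C1qa led, at 267 ± 38.9 TPM, over C1qb at 217 ± 63.0, with overlapping ranges.

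The genes whose levels ran most like the mean log2 level of the 3 C1q chains over the 13 libraries were Arhgap45 (Pearson r 0.974), Cyba (0.967), Hexa (0.967), Cd52 (0.965) and Tyrobp (0.964). For C4b they were Gfap (0.993), Trem2 (0.989), Cd68 (0.987), the member Itgb2 (0.986) and Lyz2 (0.986). These values describe libraries of 3 groups that differ in level, so any gene higher in both APP/PS1 groups scores high. After taking out group means, Gfap, the intermediate filament gene of astrocytes, stood among the genes nearest to C4b (r 0.870 over 13 libraries), behind Gm32200 (0.965) and Tubgcp6 (0.872), and the genes nearest to the C1q mean were led by Ccne1 (0.926). Gfap itself stood at 152 ± 34.4 TPM in WT water, 946 ± 49.3 in APP/PS1 water and 1054 ± 229 in APP/PS1 trazodone.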

How the data were processed

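Right-hemisphere cortical poly(A) RNA gave 13 libraries, read as paired ends on a NextSeq or NovaSeq instrument, per the labels' protocols. The submitters' processing notes name fastp, STAR, DESeq2 and GRCm38 (mm10); no source used here gives versions or the counting step. For 53832 entries the authors deposited TPM and FPKM, per the file headers, and the deposited TPM equal the deposited FPKM rescaled to a common library sum, to within 0.00868 TPM. Coordinates, GC content and length came from GENCODE M21 by symbol. Depth was estimated from the FPKM step of 1 fragment and is not a deposited total.

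Entries with a mean of at least 0.5 TPM entered 1 limma fit of all groups, without a block, on log2(TPM + 0.5) (limma 3.58.1, R 4.3.3; lmFit, then eBayes with trend on). Fold changes are on that scale and understate changes of low genes. Tests were two-sided, p-values were adjusted by Benjamini-Hochberg over all genes tested, and adjusted p under 0.05 was called a change. Levels are mean ± SD, fold changes ± SE. C1q ratios were compared by exact permutation. The limma steps were tested on simulated data. The members and gene lists were chosen with earlier results of these data known. Beyond the members, called list genes were named by smallest p (at most 4 a list and comparison) and others by level; some are not reported here. Alternatives were other pseudocounts, minimums, scalings, fits, replicate blocks, a GC and length correction, and leaving out each library.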

Additional observations from a re-analysis of the deposited data

Results flagged for a closer look

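The ratio of C1qc to C1qb in WT water held 1 library far from the others. WT water 6 stood at 0.571 while the other 5 WT libraries stood at 0.716 to 0.757, and its gap to the nearest of them took up 0.779 of the whole range of the group, above Dixon's 95% critical value for 6 samples. WT water 6 is also the library with the highest choroid plexus marker sum (2712 TPM) and the lowest C1qa and C1qc. WT water 3, the other library high in these markers, stood at a ratio of 0.757. Chance marks about 1 in 20 groups in this way, and 26 groups were examined. The part of the choroid plexus markers in the ratio was not tested.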

How the results depend on the processing

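The 7 members called higher against WT water stayed called in both APP/PS1 groups under all alternatives run, and the members with the fewest reads were C3 and C5ar1, with an estimated 13 to 81 fragments per library. The 1 call between the APP/PS1 groups was lost, leaving 0 members called, with a minimum of 0.1 TPM, with no minimum, in a fit of the 2 groups compared, with either replicate block and with the correction for GC content and length. Leaving out 1 library gave 0 to 1. Without APP/PS1 water 2 the 1 member called was C1qa, higher with trazodone, and C3ar1 was not called. Leaving out WT water 3 and 6, chosen after seeing the data, gave 2 (C3ar1 and C1qa), and C3 then stood at -0.0314 in APP/PS1 water and -0.0297 in APP/PS1 trazodone against WT water. Relative to microglial markers, the 1 call between the APP/PS1 groups became 0 with the correction for GC content and length, added after seeing the data, and 0 to 1 when 1 library was left out.

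The 8 wider complement genes called in APP/PS1 water became 5 with the correction for GC content and length and 4 to 7 without 1 library. The 1 called between the APP/PS1 groups became 1 to 2. The log2 ratio of C1qa to C1qc in APP/PS1 water against WT water ran from -0.22 to 0.015 without 1 library. Over all genes, the correction for GC content and length gave 1164 higher and 1151 lower in APP/PS1 water against WT water (1153 and 3260 without it) and 481 and 290 between the APP/PS1 groups (2319 and 730 without it). Median-ratio scaling moved the split to 1972 higher and 2095 lower, and between the APP/PS1 groups to 1665 and 1337.

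Values near 0 changed sign, none of them called in the main analysis. Between the APP/PS1 groups, C3 was at -0.0047 with a pseudocount of 1, -0.036 with median-ratio scaling, -0.066 with quantile normalization, -0.037 with rescaling that leaves out mitochondrial, hemoglobin and ribosomal protein genes, and -0.197 with the correction for GC content and length. That correction also put C1qc at -0.096, Cr1l at 0.044 and Csmd1 at -0.028 between the APP/PS1 groups. Against WT water in APP/PS1 trazodone, median-ratio scaling put Susd4 at 0.018 and Cbln1 at 0.00096. Without 1 library, values between the APP/PS1 groups ran from -0.346 to 0.050 for C1qb, -0.037 to 0.372 for C1qc, -0.234 to 0.313 for C3, -0.210 to 0.027 for C4b, -0.109 to 0.535 for C5ar1, -0.196 to 0.012 for Itgb2, -0.078 to 0.122 for Serping1 and -0.067 to 0.058 for Clu. Against WT water they ran from -0.173 to 0.374 for C3 in APP/PS1 water, and in APP/PS1 trazodone from -0.234 to 0.259 for C1ql2, -0.068 to 0.032 for Cbln1 and -0.028 to 0.0049 for Susd4.

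On the microglial marker scale, pan-myeloid markers in place of the microglial ones put C1qa at -0.243, C1qc at -0.112 and Itgam at -0.405 (limma adjusted p 0.022) in APP/PS1 water, and C1qb at 0.137 and Itgam at 0.023 between the APP/PS1 groups. It also ended the calls of C1qb (0.10) and Itgb2 (0.22) in APP/PS1 water and of C1qb (0.24) and C1qc (0.37) in APP/PS1 trazodone against WT water. With the correction for GC content and length, C4b was at -0.141 and Itgb2 at -0.063 between the APP/PS1 groups and Itgam at 0.028 in APP/PS1 trazodone against WT water. Without 1 library, values between the APP/PS1 groups ran from -0.235 to 0.267 for C1qb, -0.017 to 0.424 for C3, -0.088 to 0.160 for C4b and -0.014 to 0.113 for Itgb2, and Itgam ran from -0.062 to 0.047 in APP/PS1 trazodone against WT water.

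Nothing in the labels links same-numbered libraries of different groups beyond the number. Of 10 pairs, 2 correlated above 0.1 by title number (mean r 0.0299, other pairs -0.0068) and 2 by library name number (0.0104, other pairs -0.00237). The replicate block on title numbers put Cbln1 at 0.080 in APP/PS1 trazodone against WT water and C4b relative to microglial markers at -0.054 between the APP/PS1 groups. The replicate block on library name numbers put Serping1 at -0.128, 0.091 and -0.037 in APP/PS1 water against WT water, between the APP/PS1 groups and in APP/PS1 trazodone against WT water. It gave 592 higher and 1720 lower genes, 1435 and 295, and 215 and 20 in those comparisons, the last against 367 and 48 without it. The cause of these shifts was not tested.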

Other observations

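After group means were taken out, the members varied together in part over the 13 libraries, given here as a description. C1qb and C1qc ran closest (Pearson r 0.872), followed by C1qa and C1qc (0.746), while C1qa and C1qb were looser (0.469). C5ar1 ran with C1qc (0.725), Itgam with Itgb2 (0.659), and C4b with Serping1 (0.704) and Itgb2 (0.673). C3ar1 ran against C1qb (-0.686) and C1qc (-0.56). The points share library preparation, depth and the trend on GC content, which differs between libraries.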
